A study of Mus musculus with 9 samples.

Results

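The bone morphogenetic protein (BMP) and TGF-beta pathway was followed through 43 genes of 18194 measured in mouse mammary cells. They were taken by symbol: the numbered BMPs, the BMP, TGF-beta and activin receptors, the Smads and the inhibin beta chains, together with Tgfb1, Tgfb3, Id1, Id2, Id3, Nog, Grem1, Chrd and Fst. They comprised 15 ligand genes, the metalloprotease gene Bmp1, 4 secreted antagonists, 12 receptors, 6 signalling Smads, 2 inhibitory Smads and 3 Id genes. Bmp3 was not analysed, as no probe set of a single gene stood for it.

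RNA came from 3 groups of 3 arrays each, whose biological replicas carry the letters A, B and C. LD cells are luminal differentiated cells, sorted as lineage-negative, EpCAM-high, CD49f-low and CD61-negative from glands of virgin C57BL/6J mice of 8 to 12 weeks, and their RNA was taken directly after purification. MaSCs are the mammary stem cell-enriched fraction of the same kind of sort (EpCAM-low, CD49f-high, CD61-positive), and yMaSCs were obtained from LD cells transduced with lentiviruses for rtTA and for wild-type YAP under a doxycycline-inducible promoter, after 7 days of doxycycline, and kept without it afterwards. Both MaSCs and yMaSCs were grown as organoids, that is, self-organized epithelial structures in Matrigel, called MaSC organoids and yMaSC organoids here, with EGF, bFGF, heparin, R-Spondin1 and noggin. Noggin is a secreted protein that binds BMPs and keeps them from their receptors, so every organoid array comes from cells under a BMP antagonist and no LD array does. LD cells were not cultured, and differences between cell type and culture therefore cannot be told apart in either comparison. In RNA of whole samples, a lower value can mean fewer cells of a type or less RNA per cell, and these cannot be told apart. Whether organoids of 1 letter share mice was not stated, and p-values measure the spread among these samples.

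Ligands of the family are dimers that bring together type I and type II receptor kinases at the cell surface. BMP-type receptors (Bmpr1a, Bmpr1b, Acvr1, with Bmpr2) phosphorylate Smad1, Smad5 and Smad9, whereas TGF-beta and activin receptors (Tgfbr1, Acvr1b, with Tgfbr2, Acvr2a, Acvr2b) phosphorylate Smad2 and Smad3. Both sets of Smads enter the nucleus with Smad4; Id1, Id2 and Id3 are classical targets of the BMP branch, and Smad6 and Smad7 are inhibitors that the signal itself induces. In the mammary gland, TGF-beta restrains the growth of ducts, and Id2 is needed for the alveolar growth of pregnancy.

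The pathway genes that rose include BMP response genes and BMP receptor subunits, and promoters of 4 of them are printed as context for the values that follow. Id2 and Smad6 stand for the response genes, and Bmpr1a and Bmpr2 for the type I and type II receptors. Each window runs from 250 bases before to 50 bases after the gene's start in RefSeq (mouse build GRCm38.p6), 5′ to 3′ on the gene's own strand. The windows lie at chr12:25096043-25096342 (minus strand) for Id2, chr9:64022010-64022309 (minus strand) for Smad6, chr14:34502497-34502796 (minus strand) for Bmpr1a and chr1:59764029-59764328 (plus strand) for Bmpr2. Capitals mark GGCGCC, a GC-rich motif known to bind Smads of the BMP branch; the Smad6 window does not contain these letters.
Id2: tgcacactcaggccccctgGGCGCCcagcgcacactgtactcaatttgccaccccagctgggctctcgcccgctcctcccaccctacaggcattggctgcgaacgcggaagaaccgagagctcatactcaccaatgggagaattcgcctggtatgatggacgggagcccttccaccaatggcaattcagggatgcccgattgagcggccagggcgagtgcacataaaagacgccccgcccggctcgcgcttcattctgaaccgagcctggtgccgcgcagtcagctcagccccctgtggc
Smad6: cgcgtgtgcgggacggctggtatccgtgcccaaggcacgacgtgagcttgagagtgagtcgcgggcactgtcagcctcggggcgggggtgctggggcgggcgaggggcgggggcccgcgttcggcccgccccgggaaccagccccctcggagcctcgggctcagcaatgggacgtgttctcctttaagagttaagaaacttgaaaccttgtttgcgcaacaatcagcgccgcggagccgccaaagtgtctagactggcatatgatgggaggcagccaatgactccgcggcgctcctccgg
Bmpr1a: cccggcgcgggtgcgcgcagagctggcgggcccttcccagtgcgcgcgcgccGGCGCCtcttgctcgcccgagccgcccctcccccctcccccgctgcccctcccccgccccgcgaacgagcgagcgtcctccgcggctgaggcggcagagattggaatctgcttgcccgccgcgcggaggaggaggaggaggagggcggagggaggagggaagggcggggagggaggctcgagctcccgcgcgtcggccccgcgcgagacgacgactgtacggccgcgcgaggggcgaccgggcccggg
Bmpr2: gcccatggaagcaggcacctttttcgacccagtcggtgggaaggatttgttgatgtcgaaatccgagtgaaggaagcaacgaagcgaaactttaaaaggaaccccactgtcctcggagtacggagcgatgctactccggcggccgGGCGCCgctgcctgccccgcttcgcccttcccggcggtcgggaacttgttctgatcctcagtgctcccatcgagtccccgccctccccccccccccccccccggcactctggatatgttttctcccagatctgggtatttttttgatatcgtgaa

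The motifs GGCGCC and CAGACA, the latter a Smad-binding motif, were searched on both strands; GGCGCC reads the same on each, and none of the 4 printed windows contains CAGACA. Promoter windows were found for 31 of the 43 genes. These genes had 37 windows, so counts of genes below are not on the same footing as shares of all windows. GGCGCC occurred in 9 of these 31 genes, and in 11.9% of the 32851 mouse windows of the same length. The windows with GGCGCC had a median GC content of 66.3%, against 52.7% over all windows and 64.3% over the windows of the pathway genes. Among genes that were higher in both kinds of organoid than in LD cells, it was in the windows of 5 of the 7 with a window (Acvr1b, Bmpr1a, Bmpr2, Id2 and Smad5), or 4 of 6 without Smad5, whose direction depends on the probe set; among those lower in both, in 1 of 3 (Tgfbr1). It was in 3 of the other 21 (Chrd, Grem1 and Smad9). CAGACA occurred in 21.0% of all windows and in 6 of the 31 genes, with 0 of the 7 higher genes among them and 1 of the 3 lower ones (Tgfbr1). Id1, Tgfb3, Fst and Tgfbr3, also higher in both kinds of organoid, had no window and are not in these counts. These matches are a description of letters, and the GC content of the windows differs along with them. The groups were set by the expression calls, and a link between motif and expression was not tested.

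The labelled cell types were checked against their markers before the pathway was compared. LD cells had the luminal keratin Krt8 at 14.26, 14.13 and 14.17 log2, and the basal regulator Trp63 at 3.94, 3.60 and 3.98. In the 6 organoids Trp63 was within 8.57 to 9.34. Of 10 basal markers, 7 rose in MaSC organoids and 8 in yMaSC organoids, and of 9 luminal markers 6 fell and 2 rose in each. LD cells also contained transcripts of other cells. The leukocyte gene Ptprc was at 8.94, 8.49 and 8.17 log2 in LD cells and within 2.64 to 2.99 in organoids, and the summed linear intensity of 8 immune markers was 672 to 1120 in LD cells against 175 to 322 in organoids. LD cells B stood apart from the other LD arrays. Its endothelial markers summed to 786 (321 and 336 in A and C, and 158 to 178 in organoids), with 9 of 10 highest in this array, and Fabp4, of the adipocyte list, was at 10.92 log2 against 4.20 and 3.70. The 10 fibroblast markers summed to 6260 in LD cells B, against 2060 and 2660 in A and C and 1610 to 9010 in organoids. In this array 7 of the 10 were highest. Of the 7 measured adipocyte markers, 4 were highest in LD cells B. However, Adipoq, Lep, Cidec, Retn and Pparg were within 2.71 to 5.0 log2 in all LD arrays. Lpl was lower in LD cells B (7.90 log2) than in A and C (9.51 and 8.86). The organoids C stood apart from A and B in both kinds, with the largest summed basal markers of each kind (13400 and 8730, against 6150 to 6460). For several genes whose values depend on LD cells B or on the organoids C, results are given with and without these arrays.

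Against LD cells, 12 of the 43 pathway genes were higher and 5 were lower in MaSC organoids, and 11 were higher and 7 lower in yMaSC organoids (limma, adjusted p under 0.05 over all genes). Over all genes, 22.1% were higher and 15.2% lower in MaSC organoids, and 21.6% and 14.3% in yMaSC organoids. In either direction this makes 39.5% of the pathway genes against 37.3% of all genes in MaSC organoids, and 41.9% against 35.9% in yMaSC organoids. These shares are near the background, so the number of genes called is no result about the pathway. The median absolute difference was 0.41 log2 in MaSC organoids (all genes, 0.32) and 0.32 log2 in yMaSC organoids (all genes, 0.31). The comparisons share the same LD arrays and are not independent of each other. In both, 11 genes were higher (all genes, 20.7%) and 5 were lower (all genes, 13.1%), 8 and 3 of them by at least 2-fold in each kind. Without overlap, the 6 organoid arrays were all above or all below the 3 LD arrays for 18 of the 43 genes (12 above and 6 below, 41.9%; all genes, 40.4%). The 24 genes that passed in neither comparison overlapped in every case, and 8 of these had a mean of at most 4 log2, near the lower quartile of all genes on the arrays (3.47 to 3.59). The direction of the total depends on scaling. As deposited, the medians of the 9 arrays over all probe sets were within 5.11 to 5.15 log2. The arrays were also brought to a common median over the 18194 chosen genes. The median difference of all genes then shifted by -0.25 log2 in MaSC organoids and -0.26 log2 in yMaSC organoids. The pathway had 11 higher and 14 lower genes in MaSC organoids (16.5% and 38.4% of all genes). In yMaSC organoids it had 11 higher and 16 lower (15.4% and 38.1%). The higher share of all calls moved from 59.3% to 30.0% and from 60.1% to 28.8%. The 16 genes called in both comparisons kept their direction and call under this scaling.

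**Figure D1:**
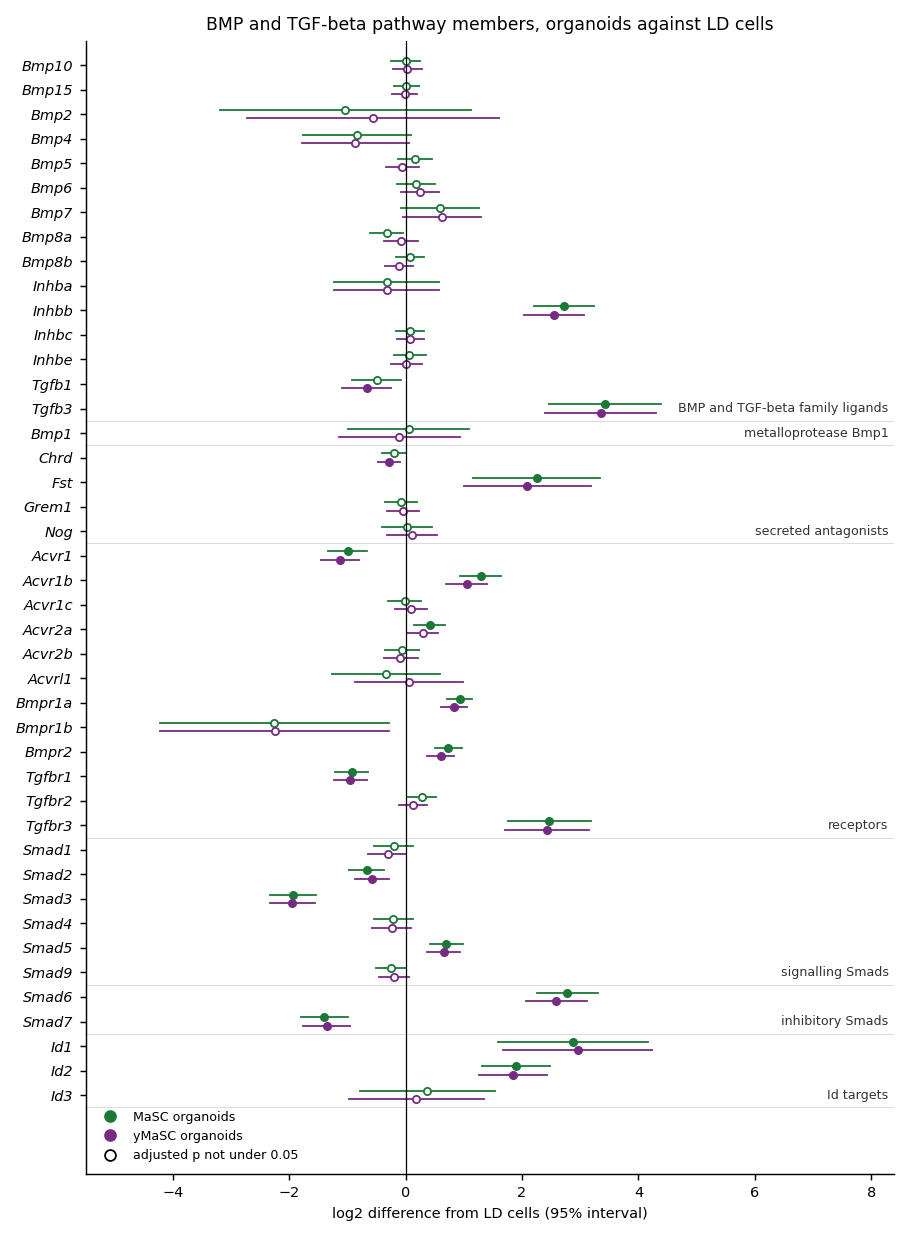
Log2 difference from LD cells for the 43 pathway genes, ordered by role, in MaSC organoids (green) and yMaSC organoids (purple). Points are differences of means of 3 arrays, lines their 95% intervals, and open points did not pass at an adjusted p under 0.05. Tgfb3, Id1, Smad6 and Inhbb lie farthest to the right in both, and Smad3 lies farthest to the left among the genes that passed.

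Among the 15 ligand genes, 2 rose in both comparisons and 13 did not pass in MaSC organoids. The share called there was 13.3%, below the 37.3% of all genes. In yMaSC organoids 1 ligand gene also fell and 12 did not pass, where 35.9% of all genes were called. Tgfb3, which encodes TGF-beta 3, a ligand of the involuting gland among other tissues, was at 7.75, 6.38 and 8.31 in LD cells A, B and C, 10.62, 11.01 and 11.07 in the MaSC organoids and 10.56, 10.96 and 10.99 in the yMaSC organoids. All organoids were above all LD arrays, and LD cells B had the lowest value. The difference was 3.42 ± 0.42 in MaSC organoids (adjusted p = 0.000313) and 3.36 ± 0.42 in yMaSC organoids (adjusted p = 0.000372), or 10.7-fold and 10.2-fold (differences are log2, ± the standard error of the fit, with n = 3 arrays per group). Inhbb encodes the beta B chain of activin B and inhibin B. Its values were 10.95, 10.28 and 10.13 in LD cells A, B and C, 13.36, 13.18 and 12.98 in the MaSC organoids and 13.14, 13.18 and 12.70 in the yMaSC organoids, again without overlap. It rose 6.59-fold in MaSC organoids and 5.87-fold in yMaSC organoids, with differences of 2.72 ± 0.23 and 2.55 ± 0.23 (adjusted p = 4.25e-05 and 6.39e-05), and its other probe set rose in both by 2.51 and 2.39 log2. Inhba, the beta A chain, was within 6.65 to 7.89 in LD cells and 6.51 to 7.65 in organoids and did not pass, and Inhbc and Inhbe differed by at most 0.08 log2.

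Tgfb1 encodes TGF-beta 1, the ligand most studied as a growth inhibitor of mammary epithelium. It was at 6.57, 5.90 and 6.23 in LD cells A, B and C, 5.72, 5.52 and 5.95 in the MaSC organoids and 5.75, 5.51 and 5.42 in the yMaSC organoids. It fell in yMaSC organoids (-0.67 log2, adjusted p = 0.0211) but did not pass in MaSC organoids (-0.50 log2, adjusted p = 0.0645), and the groups overlapped there, as MaSC organoids C lay above LD cells B. In MaSC organoids it passed as lower without LD cells B, with the letter as a fixed or random block, with arrayWeights, after another quantile normalization and at a common median (-0.50 to -0.75 log2, adjusted p = 0.00763 to 0.0472). The call in yMaSC organoids was lost without LD cells A, LD cells C, yMaSC organoids B, yMaSC organoids C or the organoids C of both kinds. It was also lost with averaged probe sets (in all these, -0.46 to -0.68 log2, adjusted p = 0.0513 to 0.0675). The other probe set of Tgfb1 did not pass in either comparison (-0.27 and -0.25 log2). The difference between the kinds of organoid was -0.17 log2 (95% interval -0.60 to 0.26).

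None of the 9 numbered BMP genes that encode ligands passed in either comparison, although with arrays at a common median Bmp8a passed as lower in both, and Bmp4, Bmp5 and Bmp8b in yMaSC organoids. Bmp10, Bmp15, Bmp5, Bmp6, Bmp8a and Bmp8b differed by at most 0.33 log2. Bmp7, a BMP made in many epithelia, was at 5.04, 5.41 and 5.63 in LD cells, 5.76, 5.58 and 6.51 in MaSC organoids and 6.10, 5.49 and 6.34 in yMaSC organoids. Its difference was 0.59 ± 0.29 in MaSC organoids (adjusted p = 0.154) and 0.62 ± 0.29 in yMaSC organoids (adjusted p = 0.142), and the groups overlapped at 5.49 and 5.63. With the letter as a replicate block over all arrays Bmp7 passed as higher in both, by 0.59 and 0.62 log2 (adjusted p = 0.0483 and 0.0427). Bmp2 and Bmp4, both chosen after their values were seen, varied within groups. Bmp4, made by stromal cells in many organs, was at 3.53, 5.38 and 3.86 in LD cells, 3.59, 3.40 and 3.27 in MaSC organoids and 3.57, 3.33 and 3.26 in yMaSC organoids. LD cells B was thus the only array above 4, and the difference was -0.84 ± 0.41 in MaSC organoids (adjusted p = 0.143) and -0.87 ± 0.41 in yMaSC organoids (adjusted p = 0.132), or -0.28 and -0.31 without that array (adjusted p = 0.219 and 0.175). Without LD cells A it passed as lower in both, with differences of -1.20 and -1.23 log2 (adjusted p = 0.0468 and 0.0444). The endothelial gene Cdh5 had the same outlying array (3.35, 6.32 and 3.27 in LD cells A, B and C), as did the fibroblast gene Col3a1 (7.01, 9.55 and 6.0), and the part of such cells in the Bmp4 value was not tested. Bmp1, a metalloprotease of the matrix that also frees BMPs from chordin and is no ligand, differed by 0.05 and -0.11 log2 and did not pass.

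Of the 4 secreted antagonists, Fst rose in both comparisons and Chrd fell in 1; with arrays at a common median Chrd fell in both and Grem1 in MaSC organoids. Follistatin, its product, binds activins with high affinity and BMPs more weakly. Fst was at 6.69, 6.62 and 5.06 in LD cells A, B and C, 8.54, 7.53 and 9.04 in the MaSC organoids and 8.19, 8.13 and 8.32 in the yMaSC organoids. All organoids exceeded all LD cells, and the spread was wide in both LD cells and MaSC organoids. It rose by 2.25 ± 0.48 in MaSC organoids (adjusted p = 0.00577) and 2.09 ± 0.48 in yMaSC organoids (adjusted p = 0.00867), and its other probe set rose by 2.05 and 2.08 log2. The gene of the antagonist that the medium supplied did not pass. Nog was at 2.88, 3.08 and 3.65 in LD cells, 3.29, 3.34 and 3.06 in MaSC organoids and 3.18, 3.29 and 3.45 in yMaSC organoids, near the bottom of the arrays' range, with differences of 0.03 ± 0.19 and 0.10 ± 0.19 (adjusted p = 0.932 and 0.717). Grem1, gremlin 1, another BMP antagonist, was likewise within 3.65 to 3.95 on all 9 arrays, with differences of -0.08 ± 0.12 and -0.05 ± 0.12 (adjusted p = 0.648 and 0.769). Chrd, chordin, was at 5.52, 5.52 and 5.56 in LD cells, 5.33, 5.33 and 5.30 in MaSC organoids and 5.24, 5.33 and 5.19 in yMaSC organoids. It fell in yMaSC organoids by 0.28 log2 (adjusted p = 0.0286), and did not pass in MaSC organoids (-0.21 log2, adjusted p = 0.0768), although all organoids lay below all LD arrays. The call was lost without LD cells C, MaSC organoids A, yMaSC organoids A or C, or the organoids C of both kinds. It was also lost with the compared groups alone and with a trended and robust prior (in all these, -0.25 to -0.28 log2, adjusted p = 0.053 to 0.11).

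**Figure D2:**
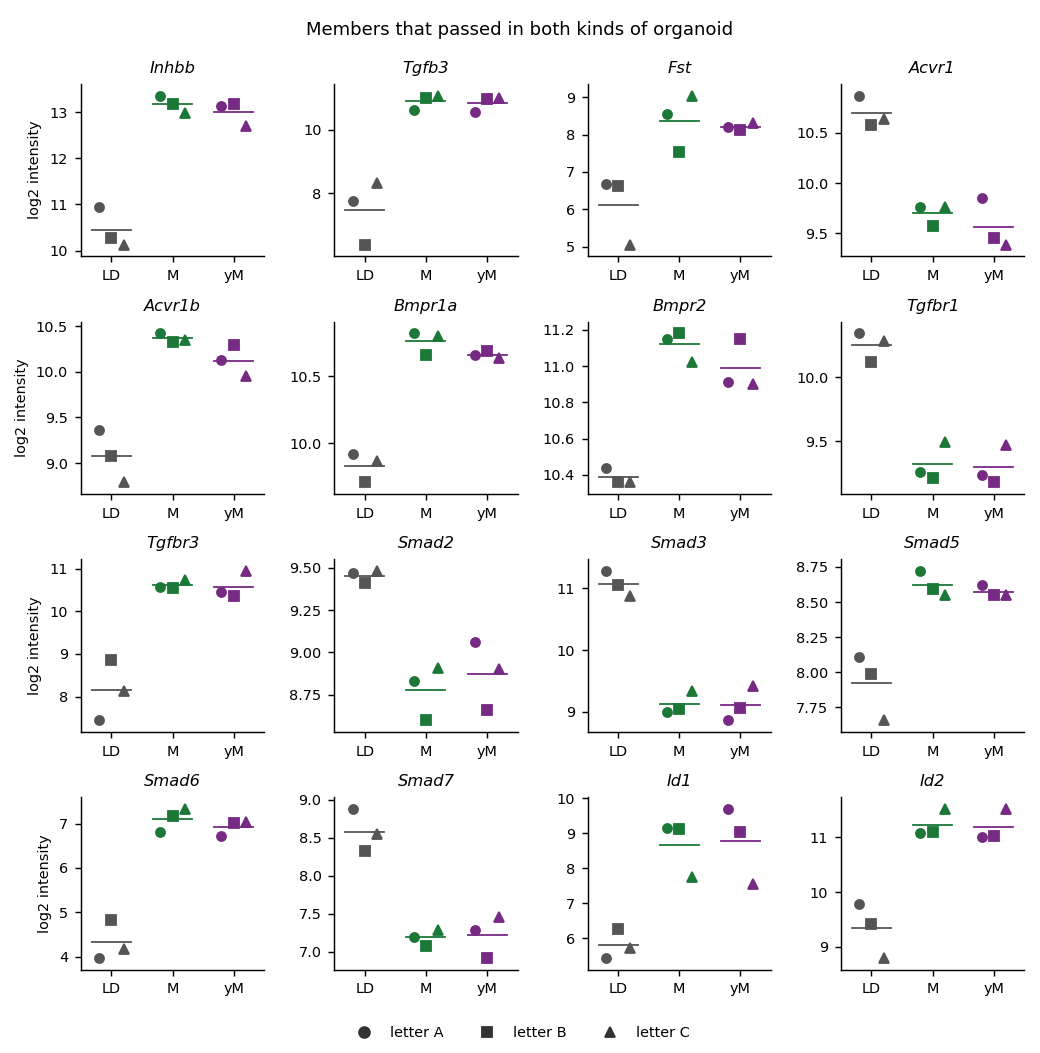
Log2 intensity of the 16 pathway genes that passed in both comparisons, by array, for LD cells (LD), MaSC organoids (M) and yMaSC organoids (yM); each panel has its own scale that does not start at 0. Circles, squares and triangles are the letters A, B and C and lines are means of 3 arrays. No panel has an organoid array within the range of the LD arrays.

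Receptors of the pathway moved in both directions. Of 12, 5 rose and 2 fell in MaSC organoids (58.3% called, against 37.3% of all genes), and 4 rose and 2 fell in yMaSC organoids; with arrays at a common median Acvr2b and Bmpr1b also passed as lower in both, and Acvr2a did not pass. Bmpr1a, the type I receptor for BMP2 and BMP4, was at 9.92, 9.71 and 9.87 in LD cells A, B and C, 10.82, 10.66 and 10.80 in the MaSC organoids and 10.66, 10.69 and 10.64 in the yMaSC organoids. The arrays of a group differed little, and the increase was 0.93 ± 0.10 in MaSC organoids (adjusted p = 0.000121) and 0.83 ± 0.10 in yMaSC organoids (adjusted p = 0.000238), which is 1.9-fold and 1.78-fold. Of its 5 other probe sets, 4 rose in both comparisons. Bmpr2, the type II partner, was at 10.44, 10.36 and 10.36 in LD cells A, B and C, 11.15, 11.18 and 11.02 in the MaSC organoids and 10.91, 11.15 and 10.90 in the yMaSC organoids and rose by 0.73 ± 0.10 in MaSC organoids (adjusted p = 0.000658) and 0.60 ± 0.10 in yMaSC organoids (adjusted p = 0.002). Its 2 other probe sets, with lower signal, did not pass. Both BMP receptor genes thus rose by less than 2-fold, with narrow spread.

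Acvr1, another type I receptor of the BMP branch, moved the other way. It was at 10.87, 10.58 and 10.64 in LD cells A, B and C, 9.76, 9.57 and 9.76 in the MaSC organoids and 9.85, 9.45 and 9.39 in the yMaSC organoids. All organoids were below all LD cells, with differences of -1.0 ± 0.15 in MaSC organoids (adjusted p = 0.000782) and -1.13 ± 0.15 in yMaSC organoids (adjusted p = 0.00043). Acvr1b, the type I receptor of activin, was at 9.36, 9.08 and 8.79 in LD cells A, B and C, 10.42, 10.33 and 10.35 in the MaSC organoids and 10.13, 10.29 and 9.95 in the yMaSC organoids. It rose by 1.29 ± 0.15 in MaSC organoids (adjusted p = 0.000258) and 1.05 ± 0.15 in yMaSC organoids (adjusted p = 0.000846), whereas its other probe set, of lower signal, did not pass. Acvr2a, a type II receptor of activin, was at 8.25, 8.21 and 7.97 in LD cells, 8.60, 8.43 and 8.63 in MaSC organoids and 8.31, 8.45 and 8.56 in yMaSC organoids. It passed as higher in MaSC organoids (0.41 log2, adjusted p = 0.0235) and not in yMaSC organoids (0.30 log2, adjusted p = 0.0823). Its second probe set fell in both by 1.0 and 0.80 log2, so its direction depends on the probe set. The call was also lost without LD cells C, MaSC organoids A, MaSC organoids C or the organoids C of both kinds (0.32 to 0.39 log2, adjusted p = 0.0685 to 0.08). After another quantile normalization it was lost as well (0.23 log2, adjusted p = 0.187).

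The TGF-beta receptors were divided. Tgfbr3, betaglycan, presents TGF-beta to the signalling receptors and is a coreceptor for inhibin. It was at 7.45, 8.86 and 8.14 in LD cells A, B and C, 10.58, 10.55 and 10.74 in the MaSC organoids and 10.44, 10.35 and 10.94 in the yMaSC organoids. The lowest organoid lay more than 1 log2 above the highest LD array, and the increase was 2.47 ± 0.32 in MaSC organoids (adjusted p = 0.000388) and 2.43 ± 0.32 in yMaSC organoids (adjusted p = 0.000457), or 5.55-fold and 5.38-fold. Its second probe set rose by 1.20 and 1.21 log2. Tgfbr1, the type I receptor, was at 10.34, 10.12 and 10.28 in LD cells A, B and C, 9.26, 9.21 and 9.49 in the MaSC organoids and 9.24, 9.18 and 9.47 in the yMaSC organoids. It fell by 0.93 ± 0.12 log2 in MaSC organoids (adjusted p = 0.000475) and by 0.95 ± 0.12 log2 in yMaSC organoids (adjusted p = 0.000446), and its 2 other probe sets did not pass. Tgfbr2, the type II receptor, was within 11.03 to 11.26 in LD cells and 11.15 to 11.47 in organoids, and did not pass in either (0.28 and 0.13 log2), although in MaSC organoids it passed as higher with arrayWeights, after another quantile normalization and with the letter as a random block (0.28 to 0.31 log2, adjusted p = 0.0326 to 0.0486).

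Bmpr1b, a type I BMP receptor chosen here after its values were seen, depended on LD cells B more than any other pathway gene. It was at 7.37, 3.27 and 6.58 in LD cells A, B and C, 3.65, 3.41 and 3.38 in the MaSC organoids and 3.59, 3.66 and 3.21 in the yMaSC organoids. LD cells A and C were thus high, LD cells B was at the level of the organoids, and the test did not pass. The difference was -2.26 ± 0.87 in MaSC organoids (adjusted p = 0.0713) and -2.25 ± 0.87 in yMaSC organoids (adjusted p = 0.0741). Without LD cells B the differences were -3.50 log2 (adjusted p = 4.74e-05) and -3.49 log2 (adjusted p = 5.01e-05). Its 2 other probe sets had lower signal, and 1 of them fell in MaSC organoids (-0.45 log2). Beside it, Tgfb1 and Bmp8a also passed as lower in MaSC organoids without that array, which made 8 lower genes there instead of 5, and Bmpr1b and Smad4 joined the lower genes in yMaSC organoids, 9 instead of 7. Higher genes stayed 12 and 11. The remaining receptors were Acvr1c, Acvr2b and Acvrl1, which differed by -0.34 to 0.09 log2 and did not pass.

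**Figure D3:**
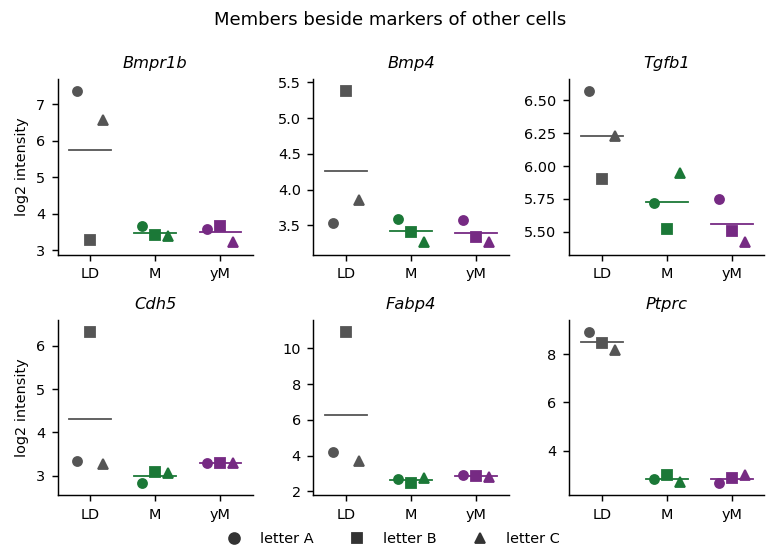
Log2 intensity by array of Bmpr1b, Bmp4 and Tgfb1 (top) and of an endothelial (Cdh5), an adipocyte (Fabp4) and a leukocyte marker (Ptprc, bottom) in LD cells (LD), MaSC organoids (M) and yMaSC organoids (yM), each panel on its own scale that does not start at 0; symbols are letters and lines are means of 3 arrays. LD cells B (square) is low for Bmpr1b at 3.27 and high for Bmp4 at 5.38, Cdh5 at 6.32 and Fabp4 at 10.92.

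The signalling Smads of the TGF-beta and activin branch fell; Smad1, Smad4 and Smad9 did not pass, although with arrays at a common median all 3 passed as lower. Smad3 was at 11.28, 11.06 and 10.87 in LD cells A, B and C, 9.00, 9.04 and 9.34 in the MaSC organoids and 8.87, 9.07 and 9.42 in the yMaSC organoids. The groups were separated by more than 1 log2, and Smad3 fell by 1.94 ± 0.17 log2 in MaSC organoids (adjusted p = 5.78e-05) and by 1.95 ± 0.17 log2 in yMaSC organoids (adjusted p = 6.2e-05), or 3.85-fold and 3.86-fold. Both other probe sets of Smad3 fell as well, by 1.26 to 1.40 log2. Smad2, which transduces the same signals, was at 9.47, 9.41 and 9.48 in LD cells A, B and C, 8.83, 8.60 and 8.91 in the MaSC organoids and 9.06, 8.66 and 8.90 in the yMaSC organoids. It fell by 0.67 ± 0.13 and 0.58 ± 0.13 log2 (adjusted p = 0.00329 and 0.00733), and its second probe set did not pass. In the BMP branch, Smad1 was within 10.17 to 10.60 in LD cells and 9.88 to 10.22 in organoids and did not pass. A dimmer probe set of Smad1 fell in both, by 0.44 and 0.50 log2 (adjusted p = 0.0191 and 0.0102), and with the mean of its probe sets Smad1 passed as lower in yMaSC organoids (-0.42 log2, adjusted p = 0.0282). Smad9 was within 3.25 to 3.75 on all arrays, and passed as lower in both without LD cells A (-0.36 and -0.31 log2, adjusted p = 0.0246 and 0.0412). Smad4, the partner of both branches, was within 10.59 to 11.12 in LD cells and 10.47 to 10.79 in organoids and did not pass.

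Smad5 could not be given a direction. By its brightest probe set it was at 8.11, 7.99 and 7.66 in LD cells, 8.72, 8.59 and 8.55 in MaSC organoids and 8.62, 8.55 and 8.55 in yMaSC organoids, with differences of 0.70 ± 0.13 and 0.65 ± 0.13 (adjusted p = 0.00244 and 0.00365). A second probe set also rose in both (0.45 and 0.31 log2), whereas another fell in both (-1.23 and -1.01 log2), and the mean of all its probe sets differed by -0.02 and -0.01 log2. A 2-fold limit was met in both comparisons by 11 of the 16 genes that passed in both, and not by Bmpr1a, Bmpr2, Smad2, Smad5 and Tgfbr1. The probe sets were not matched to isoforms.

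The inhibitory Smads moved in opposite directions. Smad6, which preferentially restrains the BMP branch, was at 3.98, 4.83 and 4.17 in LD cells A, B and C, 6.80, 7.18 and 7.33 in the MaSC organoids and 6.72, 7.01 and 7.03 in the yMaSC organoids. The LD values were low in the arrays' range, no organoid was below 6.72, and the increase was 2.78 ± 0.23 in MaSC organoids (adjusted p = 4.03e-05) and 2.59 ± 0.23 in yMaSC organoids (adjusted p = 6.23e-05), or 6.85-fold and 6.03-fold. Smad7, which restrains both branches and is a classical TGF-beta target, was at 8.88, 8.32 and 8.55 in LD cells A, B and C, 7.19, 7.08 and 7.29 in the MaSC organoids and 7.28, 6.92 and 7.46 in the yMaSC organoids. It fell by 1.40 ± 0.18 log2 in MaSC organoids (adjusted p = 0.00038) and by 1.36 ± 0.18 log2 in yMaSC organoids (adjusted p = 0.000462), and its other probe set fell by 0.71 and 0.80 log2.

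The Id genes encode helix-loop-helix proteins without a DNA-binding region, which hold back other transcription factors of their class. Id2 was at 9.79, 9.42 and 8.80 in LD cells A, B and C, 11.08, 11.10 and 11.52 in the MaSC organoids and 11.01, 11.03 and 11.51 in the yMaSC organoids. It rose by 1.9 ± 0.26 in MaSC organoids (adjusted p = 0.000542) and 1.85 ± 0.26 in yMaSC organoids (adjusted p = 0.00067), that is 3.72-fold and 3.60-fold, and both other probe sets rose too. Id1 was at 5.44, 6.27 and 5.72 in LD cells A, B and C, 9.16, 9.13 and 7.75 in the MaSC organoids and 9.70, 9.04 and 7.56 in the yMaSC organoids. All organoids exceeded all LD cells, by 2.87 ± 0.56 in MaSC organoids (adjusted p = 0.00386) and 2.96 ± 0.56 in yMaSC organoids (adjusted p = 0.00346), but organoids C of both kinds were well below organoids A and B. Id3 was at 7.73, 8.09 and 7.87 in LD cells, 7.95, 7.23 and 9.63 in MaSC organoids and 8.31, 7.71 and 8.22 in yMaSC organoids. Its highest array was MaSC organoids C, the groups overlapped, and it did not pass, with differences of 0.37 ± 0.51 and 0.18 ± 0.51 (adjusted p = 0.61 and 0.814). Thus 2 of the 3 Id genes rose in both kinds of organoid (all genes, 20.7%). The organoid medium contained a BMP antagonist, and the part of BMP signals in the Id values was not tested.

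Among the 6 organoid arrays, genes were also compared across the letters A, B and C with the kind of organoid as a term. Id1 was the 1 pathway gene of 43 that passed (5.52% of all genes; adjusted p = 0.022), with means of the letters that spanned 1.77 log2. In MaSC organoids it was 9.16 and 9.13 in A and B against 7.75 in C, and in yMaSC organoids 9.70 and 9.04 against 7.56. The order was opposite for Id2, with 11.52 and 11.51 in organoids C against 11.01 to 11.10 in A and B, although Id2 did not pass (adjusted p = 0.0627). Bmp2 spanned the widest range, 3.11 log2 between letters: it was 3.74 and 3.49 in organoids A, 5.31 and 4.97 in B, and 5.72 and 7.73 in C, with 6.28, 5.72 and 5.88 in LD cells A, B and C (adjusted p = 0.0828 across letters). At an unadjusted p under 0.05, 14 of the 43 genes differed among letters, against 4576 of all 18194. With a trended and robust prior 6 pathway genes passed (Acvrl1, Bmp7, Id1, Id2, Inhba and Tgfb3; 8.44% of all genes). With organoids C left out, Id1 and Id2 were still higher than in LD cells, by 3.33 and 1.75 log2 in MaSC organoids (adjusted p = 0.00022 and 0.0023) and by 3.56 and 1.68 log2 in yMaSC organoids (adjusted p = 0.000179 and 0.00279). Bmp2 then passed as lower in yMaSC organoids (-1.73 log2, adjusted p = 0.0486). What the letters stand for beyond biological replicas is not stated, so animal, culture and array cannot be told apart as sources of a difference among them.

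**Figure D4:**
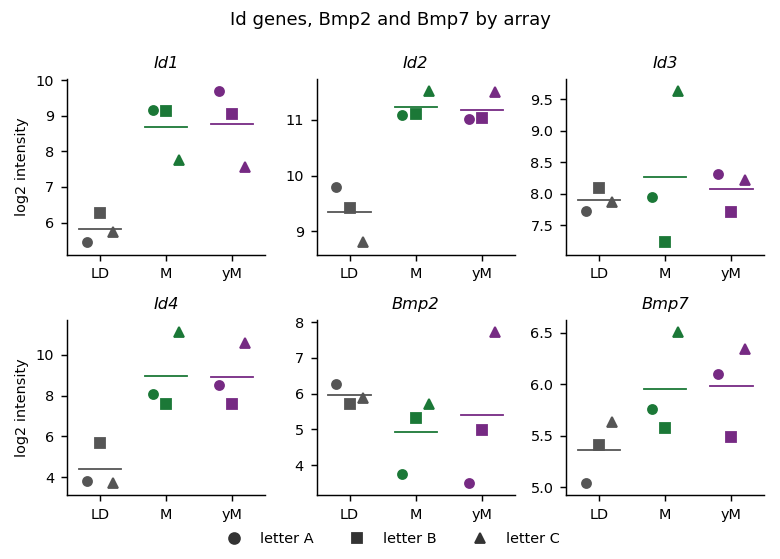
Log2 intensity by array of Id1, Id2, Id3, Id4, Bmp2 and Bmp7 in LD cells (LD), MaSC organoids (M) and yMaSC organoids (yM), each panel on its own scale that does not start at 0; circles, squares and triangles are the letters A, B and C and lines are means of 3 arrays. In organoids, letter C is lowest for Id1 (7.75 and 7.56) and highest for Id2 (11.52 and 11.51) and Id4 (11.13 and 10.58).

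Organoids from yMaSCs were then set against MaSC organoids, to ask whether pathway genes depend on the origin of the organoids. With limma, 0 of 43 genes passed at an adjusted p under 0.05 and 0 had an unadjusted p under 0.05. Of all genes 0.0% passed and 104 (0.572%) had such a p, fewer than this limit gives where no gene differs. This fit had no term for the letter, so spread among letters entered its intervals. The median absolute difference was 0.0767 log2 over pathway genes (all genes, 0.07). For 35 of 43 the 95% interval lay within 1 log2 in either direction. The largest was Bmp2 (0.47 log2, -1.69 to 2.63), followed by Acvrl1 (0.40 log2, -0.53 to 1.33), and both intervals reach past 2-fold. For genes that rose or fell against LD cells, the intervals were narrow in Smad3 (-0.01 log2, -0.40 to 0.39), Smad7 (0.03 log2, -0.37 to 0.44), Smad6 (-0.18 log2, -0.71 to 0.34) and Inhbb (-0.17 log2, -0.69 to 0.35), and wide in Id1 (0.09 log2, -1.20 to 1.37). Id1, which passed among letters, differed between the kinds by 0.54, -0.09 and -0.19 log2 within letters A, B and C. With the letter as a block in the organoid arrays alone, 41 intervals lay within 1 log2 and 0 genes passed. There, 1 gene (Acvrl1) had an unadjusted p under 0.05 (3.28% of all genes).

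Beyond these genes, 95 others of the pathway were listed by role and 85 were measured. Of these, 19 rose and 18 fell in MaSC organoids (43.5% against 37.3% of all genes), and 18 rose and 18 fell in yMaSC organoids (42.4% against 35.9%). Up to 3 genes of each list are given, those with the largest difference.

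Of 12 other ligand genes, 2 rose and 2 fell in each comparison (33.3% called, against 37.3% and 35.9% of all genes). Tgfb2, the remaining TGF-beta ligand gene, was at 9.37, 9.26 and 9.12 in LD cells, 6.97, 7.46 and 7.66 in MaSC organoids and 7.18, 7.46 and 8.02 in yMaSC organoids. It moved against Tgfb3, with differences of -1.89 ± 0.24 and -1.70 ± 0.24 (adjusted p = 0.000354 and 0.00067) in MaSC organoids and yMaSC organoids. Gdf5, a BMP-type growth factor of joints and skeleton, was within 3.73 to 3.91 in LD cells and 5.25 to 6.54 in organoids, and rose by 2.05 ± 0.29 and 2.12 ± 0.29 (adjusted p = 0.000701 and 0.000637). Lefty1, an inhibitor of nodal, rose by 0.78 ± 0.17 and 0.72 ± 0.17 (adjusted p = 0.00594 and 0.00921), but in yMaSC organoids it did not pass after another quantile normalization (0.44 log2, adjusted p = 0.077) or at a common median (0.47 log2, adjusted p = 0.0508).

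Of 20 other secreted modulators, 2 rose and 3 fell in each (25.0% called, against 37.3% and 35.9% of all genes). Latent TGF-beta binding proteins are matrix proteins, of which Ltbp1 holds the inactive ligand and Ltbp2 does not. Ltbp2 was at 7.14, 7.96 and 7.64 in LD cells, 10.64, 10.99 and 11.17 in MaSC organoids and 10.53, 10.76 and 11.75 in yMaSC organoids and rose by 3.35 ± 0.33 and 3.43 ± 0.33 (adjusted p = 9.27e-05 and 9.31e-05). Ltbp1 was at 9.10, 9.65 and 9.21 in LD cells, 6.14, 6.47 and 7.38 in MaSC organoids and 6.50, 6.40 and 7.73 in yMaSC organoids and fell, with differences of -2.66 ± 0.41 and -2.44 ± 0.41 (adjusted p = 0.00106 and 0.00175). Sostdc1, a secreted inhibitor of BMP and Wnt signals, was at 3.28, 4.66 and 3.68 in LD cells, 5.94, 7.44 and 7.05 in MaSC organoids and 6.65, 6.69 and 7.32 in yMaSC organoids. It rose by 2.94 ± 0.45 and 3.01 ± 0.45 (adjusted p = 0.000993 and 0.00091). The antagonist genes Chrdl2 (-1.46 and -1.38 log2, adjusted p = 0.0242 and 0.0313) and Nbl1 (-0.78 and -0.82 log2, adjusted p = 0.00994 and 0.00822), named after their values were seen, fell in both.

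Of 9 coreceptors and pseudoreceptors, 3 rose and 2 fell in each (55.6% called, against 37.3% and 35.9% of all genes). Rgma, a BMP coreceptor also known as a guidance molecule of axons, rose by 2.81 ± 0.33 and 2.60 ± 0.33 (adjusted p = 0.000252 and 0.000415) and also passed among letters (adjusted p = 0.014), being 7.34 to 7.76 in organoids A and B and 6.76 and 6.54 in C. Integrins alpha v beta 6 and alpha v beta 8 release TGF-beta from its latent form. Their beta chains moved apart: Itgb6 had differences of -2.00 ± 0.28 and -1.83 ± 0.28 (adjusted p = 0.000581 and 0.000997) and Itgb8 of 1.15 ± 0.26 and 1.04 ± 0.26 (adjusted p = 0.00787 and 0.0131). Without yMaSC organoids B, Itgb8 did not pass there (0.90 log2, adjusted p = 0.0538). Itgav, which encodes the alpha v chain of both integrins and was named after its values were seen, fell in both comparisons (-0.92 and -0.88 log2, adjusted p = 0.00372 and 0.00499).

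Of 19 intracellular regulators, 6 rose and 6 fell in each (63.2% called, against 37.3% and 35.9% of all genes). Tgif1, a corepressor of Smad2 and Smad3, was at 11.55, 11.01 and 11.06 in LD cells, 9.21, 9.25 and 9.09 in MaSC organoids and 9.5, 9.15 and 9.65 in yMaSC organoids and fell, with differences of -2.02 ± 0.18 and -1.77 ± 0.18 (adjusted p = 5.28e-05 and 0.00011). Smurf1, a ubiquitin ligase of BMP Smads and receptors, also fell, with differences of -1.19 ± 0.17 and -1.08 ± 0.17 (adjusted p = 0.000821 and 0.00142). Tgif2, a relative of Tgif1, passed as lower with differences of -1.40 ± 0.46 and -1.62 ± 0.46 (adjusted p = 0.0415 and 0.0239). Its call was lost in MaSC organoids without LD cells A or C, without organoids A or B of either kind, with the compared groups alone and with averaged probe sets (adjusted p = 0.0587 to 0.14). In yMaSC organoids it was lost without LD cells A or C or yMaSC organoids A or B, and with averaged probe sets (adjusted p = 0.0512 to 0.0811).

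Of the 9 genes listed as other BMP targets, 2 rose and 1 fell in each (33.3% called, against 37.3% and 35.9% of all genes). Zfp423, 1 of the 2 that rose, encodes a Smad partner. The genes that fell, named after their values were seen, were Msx1 in MaSC organoids (-0.39 log2) and Tbx3 in yMaSC organoids (-0.76 log2). Id4, the fourth Id gene, was at 3.80, 5.69 and 3.70 in LD cells A, B and C, 8.07, 7.61 and 11.13 in the MaSC organoids and 8.52, 7.61 and 10.58 in the yMaSC organoids. It rose by 4.54 ± 1.06 in MaSC organoids (adjusted p = 0.00911) and 4.51 ± 1.06 in yMaSC organoids (adjusted p = 0.00972), and the organoids C were more than 2 log2 above the other organoids (adjusted p = 0.00895 among letters), the letter at which Id1 was lowest. Without the organoids C it was still higher than in LD cells, by 3.44 and 3.67 log2 (adjusted p = 0.00462 and 0.00359). Zfp423, which encodes a DNA-binding partner of BMP Smads, was at 3.36, 3.96 and 3.85 in LD cells, 6.45, 6.11 and 7.0 in MaSC organoids and 5.71, 6.18 and 6.14 in yMaSC organoids and rose by 2.80 ± 0.25 and 2.29 ± 0.25 (adjusted p = 6.19e-05 and 0.000184).

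Of 16 TGF-beta targets, 4 rose and 4 fell in MaSC organoids, and 3 rose and 4 fell in yMaSC organoids. Snai2, a transcription factor of basal cells that is also in the list of basal markers, was at 4.12, 4.15 and 3.70 in LD cells, 7.46, 7.21 and 9.09 in MaSC organoids and 8.03, 7.46 and 8.37 in yMaSC organoids and rose by 3.93 ± 0.46 and 3.96 ± 0.46 (adjusted p = 0.000233 and 0.000238). Timp1, an inhibitor of metalloproteases, was at 9.57, 10.33 and 9.89 in LD cells, 5.55, 5.79 and 7.26 in MaSC organoids and 5.94, 5.76 and 6.82 in yMaSC organoids and fell, with differences of -3.73 ± 0.46 and -3.76 ± 0.46 (adjusted p = 0.000316 and 0.000323). Jun, an AP-1 factor also known as an early response gene, was within 12.28 to 12.44 in LD cells and 8.75 to 9.51 in organoids, with differences of -3.19 ± 0.18 and -2.97 ± 0.18 (adjusted p = 6.57e-06 and 9.16e-06). Members of this list thus moved both ways, and the list shares Acta2 and Snai2 with the basal markers, which rose.

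**Figure D5:**
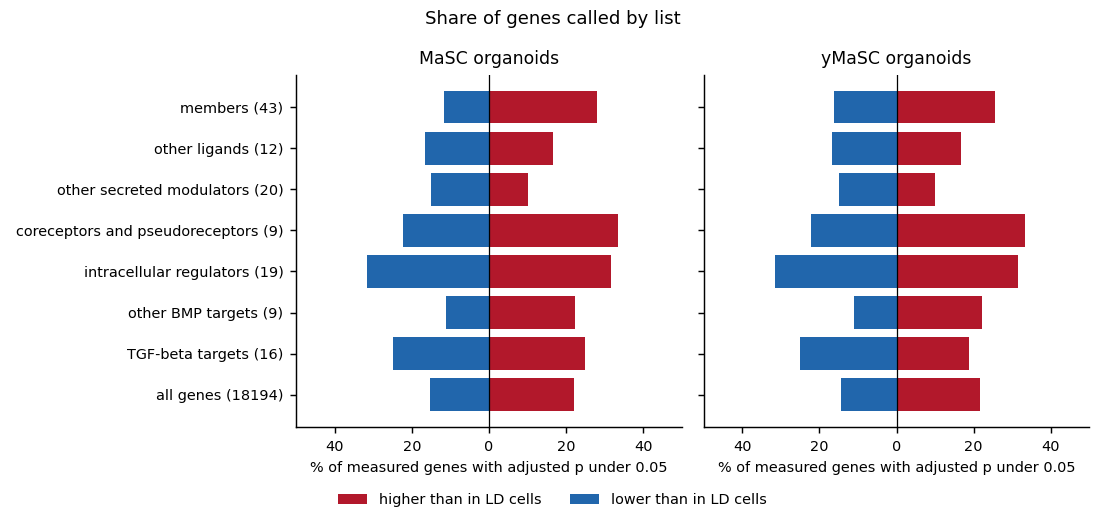
Share of the measured genes of each list, in percent, with an adjusted p under 0.05 in MaSC organoids (left) and yMaSC organoids (right) against LD cells, to the right for higher and to the left for lower; the number of measured genes is in brackets. The 43 pathway genes (members) have 39.5% and 41.9% called, beside 37.3% and 35.9% of all 18194 genes, and intracellular regulators have 63.2% in both.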

How the data were processed

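RNA of the 3 groups, with 3 biological replicas each, was measured on Affymetrix mouse expression arrays. The deposited values are log2 intensities that the authors made with RMA (which corrects background, quantile-normalizes arrays and summarizes probes); the sources used here do not give its version. Precision is limited by how few arrays each group has.

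Of 45101 probe sets, 34958 had 1 gene in the platform annotation, 932 several and 9211 none; 34754 were also found by gene ID in a RefSeq table. Each of 18194 genes was represented by its probe set with the highest mean over the 9 arrays; 28 of the 43 pathway genes had more than 1. No filter on low values was applied. A linear model of the 3 groups was fitted to all genes with limma 3.58.1 in R 4.3.3, and genes with a p under 0.05 after Benjamini-Hochberg adjustment over all of them passed. Letters were tested by an F-test in the 6 organoid arrays with the kind as a term. The fit was tested on simulated data.

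The pathway genes, the lists of other pathway genes and markers, and the tests were chosen with earlier results of these data known. Values by array are given by rule for genes that passed in both comparisons with LD cells or among letters, for Id1, Id2, Id3, Nog, Grem1, Chrd and Fst, and for up to 3 genes of each other list with the largest difference in MaSC organoids among those that passed in both; others were named after their values were seen. Whether letters pair the arrays was checked on their deviations from the group means, correlated over genes: organoids of the same letter gave r = 0.607, 0.611 and 0.649, and LD cells with organoids of their letter -0.046 to 0.045, so letters pair the kinds of organoid but not LD cells. Alternatives were a letter block (fixed, random or in organoids alone), arrays left out, arrayWeights, a 2-fold limit, a common median, another quantile normalization, the compared groups alone, averaged probe sets, a trended and robust prior, and a filter at the median gene. The fit of every probe set on its own was added after the data were seen. Promoter windows and motifs were read from a RefSeq table of GRCm38.p6.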

Additional observations from a re-analysis of the deposited data

How the results depend on the processing

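Of 2352 alternative values of 60 pathway genes in the comparisons with LD cells, 2257 stayed on their side of the threshold. Of the others, 50 no longer passed, 42 newly passed and 3 reversed. A reversal was counted only where the gene passed by default or under the alternative. Genes that passed in neither could change sign and still count as kept, such as Id3 in MaSC organoids (-0.31 to 0.89 log2). The 3 reversals came with the mean of all probe sets: Acvr2a in MaSC organoids (-0.29 log2) and Smad5 in MaSC organoids (-0.02 log2) and yMaSC organoids (-0.01 log2), whose probe sets moved in opposite directions. Of the 16 genes that passed in both comparisons, 11 met a 2-fold limit in both (Bmpr1a, Bmpr2, Smad2, Smad5 and Tgfbr1 did not); under the other alternatives in which they were tested 15 kept direction and call, and Smad5 did not. The number of lower pathway genes in MaSC organoids moved from 5 to 8 with arrayWeights, to 14 at a common median and to 3 with a 2-fold limit, and was 5 to 8 with single arrays left out, the 8 without LD cells B. In yMaSC organoids it moved from 7 to 16 at a common median and to 3 with a 2-fold limit. Other pathway genes lower than in LD cells, 18 in each comparison, became 39 and 37 at a common median and 10 and 10 with a 2-fold limit. Pathway genes that differed among letters, 1 by default, were 3 among genes above the median (Id1, Id2 and Tgfb3), 2 with the mean of all probe sets (Id1 and Id2) and 6 with a trended and robust prior. With the letter as a replicate block over all arrays, 13 pathway genes were higher and 6 lower in MaSC organoids, and 12 and 7 in yMaSC organoids; as a random block these were 13, 6, 11 and 7, and 0 differed between the kinds of organoid under each block. The cause of the other shifts was not tested. Intensity gives no absolute level, and levels were not compared between genes.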

Other observations

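Other pathway genes varied with the letter of the organoids. Of 85 measured, 13 passed the test among letters, against 5.52% of all genes, and 6 of the 13 were among the TGF-beta targets. These 6 encode matrix, contractile and protease-related proteins. Fn1, fibronectin, was at 5.27, 5.06 and 8.56 in MaSC organoids A, B and C and at 5.54, 4.98 and 7.88 in yMaSC organoids (adjusted p = 0.0081 among letters), while against LD cells (6.10, 7.25 and 5.33) it did not pass. Postn, periostin, was at 10.84, 10.26 and 12.68 and at 10.86, 9.67 and 12.43 (adjusted p = 0.00722). Mmp2, a gelatinase, was at 5.68, 5.81 and 7.25 and at 5.44, 5.99 and 8.12 (adjusted p = 0.0282). Acta2 and Tagln, both of the contractile apparatus, and Timp1 were also highest in the organoids C of both kinds (adjusted p = 0.0474, 0.0465 and 0.0415). These arrays also had the largest summed basal markers of their kind. Their 10 fibroblast markers, which include Postn, summed to linear intensities of 9010 and 6850 against 1610 to 3180 in organoids A and B. Most of the sum in organoids C came from Postn and Dcn (11.06 and 10.08 log2 for Dcn). Col1a1, Col1a2, Col3a1, Pdgfrb, Lum, Fap and Thy1 were within 2.56 to 4.70 log2 in all 6 organoids, and Pdgfra within 7.11 to 7.72. The part of basal cells or fibroblasts was not tested.

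Outside the targets, the matrix proteoglycan gene Bgn was highest in organoids C (9.59 and 8.93, against 7.11 to 7.51 in A and B; adjusted p = 0.0282), as were Ltbp1 (7.38 and 7.73, against 6.14 to 6.50; adjusted p = 0.0212) and Inha, the inhibin alpha chain (5.10 and 5.22, against 4.01 to 4.61; adjusted p = 0.0177). The coreceptor genes Rgma and Itgb8 and the ubiquitin ligase gene Nedd4l were lowest in organoids C (adjusted p = 0.014, 0.0493 and 0.0496). These genes were named after their values were seen.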
